A study of Mus musculus with 14 samples.

Results

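Eosinophils, basophils and mast cells are granulocytes that store proteins in cytoplasmic granules and release them in allergy and in defence against parasites. The 10 genes described here were chosen by symbol, Ear1, Ear2, Ear6, Epx, Prg2, Prg3, Prss34, Mcpt8, Cpa3 and Ms4a2, out of 45706 genes in the count tables. Each symbol stood in 1 row of both tables, and all 10 passed the filter on low counts in every comparison. The first 6 encode proteins of eosinophil granules. The other 4 encode proteins of basophils and mast cells.

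In the bone marrow these cells develop from blood-forming progenitors. Transcription factors of the GATA and C/EBP families take part in that development. The cytokines IL-3, IL-5 and GM-CSF signal through receptors with a common beta chain. Granule protein genes are switched on while the cells are still immature, so their transcripts can be read in progenitor populations.

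RNA sequencing was done on 14 libraries in 6 groups of mouse blood-forming cells, to ask what loss of Prmt5, which encodes a protein arginine methyltransferase, does to expression. LK KO cells (3 libraries, A, B and C) were sorted from mice carrying Mx1-cre and PRMT5fl/fl, and LK WT cells (3 libraries) from PRMT5fl/fl mice without the recombinase. Both LK groups were collected 7 days after poly(I:C), which induces the interferon that turns Mx1-cre on, so WT cells had seen the same agent. Ter119neg KO and Ter119pos KO cells (2 libraries each, A and B) were sorted from the livers of E14.5 embryos with Vav-cre and PRMT5fl/fl, and Ter119neg WT and Ter119pos WT cells (2 libraries each) from PRMT5fl/fl embryos. Ter119 is a surface antigen of maturing erythroid cells. Vav-cre is active across blood cells from fetal life, and Mx1-cre also acts outside the blood system. The sources used here give neither the age of the LK mice nor the markers behind the LK sort. Both fetal fractions were taken from KO mice 1 and 2 and from WT mouse 4. The LK labels name no mice, and an LK p-value therefore covers only library-to-library spread, which may be technical.

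Levels are CPM, counts scaled to a fixed library size with TMM factors, with LK and fetal libraries normalised separately. Total counts ranged from 19514550 to 30976961 in LK libraries and from 19880052 to 29652947 in fetal libraries. Prmt5 stood at 10.5 to 12.3 CPM in LK KO against 63.1 to 110 CPM in LK WT libraries, at 4.26 to 4.51 against 51.8 to 52.3 CPM in Ter119neg, and at 3.64 to 4.92 against 13.8 to 17.7 CPM in Ter119pos. Ribosomal 18S RNA (Rn18s-rs5) made up 23.4% of all counts in LK KO library B and 18.0% in LK WT library B, against at most 0.274% in any library of the other letters or of the fetal liver. Kit, the stem cell factor receptor, was read at 325 to 388 CPM in LK KO and 209 to 295 CPM in LK WT libraries.

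The cell type names of the genes were checked against other markers. Il5ra, the IL-5 receptor chain of eosinophils, was at most 0.612 CPM in any library, and the eosinophil chemokine receptor Ccr3 at most 0.292 CPM. Siglecf, a surface lectin of eosinophils, ranged from 13.3 to 29.3 CPM in LK cells. The mast cell genes Mcpt1, Tpsab1 and Mrgprb2 had 0 counts in all 14 libraries, where a count of 0 allows up to 3 counts per library as counting error alone. Mcpt2, Mcpt4, Tpsb2 and Tpsg1 were at most 0.0541 CPM in any LK library. Other mast cell and basophil genes, Hdc, Slc18a2 and Fcer1a, were read in every LK library. Hdc ranged from 70.7 to 146 CPM in LK cells. Cma1 ranged from 0.0583 to 0.832 CPM in LK cells, at its lowest near the 0.0541 CPM above, and cannot be called present in every library. Fcer1a averaged 2.74 CPM in LK KO and 4.47 CPM in LK WT. The genes at 0 thus do not show that mast cells or basophils were absent. Of the 3 eosinophil surface markers, Il5ra and Ccr3 were thus near 0 while Siglecf was read in every LK library. The libraries are described as sorted populations that hold these transcripts, not as eosinophils or mast cells.

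All positions are on GRCm38, with gene models from GENCODE M21, in which all 10 are protein coding. Ear1 (chromosome 14, 43818765 to 43875517, minus strand, 2 exons in its longest transcript), Ear2 (chromosome 14, 44102654 to 44103534, plus strand, 2 exons) and Ear6 (chromosome 14, 51853699 to 51854643, plus strand, 1 exon) encode eosinophil-associated ribonucleases. Of all 50-base words in its transcripts, Ear1 shared 57.4% with other genes, Ear2 41.5% and Ear6 0.954%, the sharing genes being each other, Ear10 and, for Ear1 and Ear2, Ear pseudogenes. Over words of 100 bases Ear1 shared 23.9% and Ear2 13.9%, with Ear10 and a pseudogene and not with each other. Expected counts of Ear1 were fractional in 8 and those of Ear2 in 4 of 14 libraries, against 0 for the other 8 genes. How reads were split among Ear1, Ear2, Ear10 and the pseudogenes is therefore uncertain, and values for Ear1, Ear2 and Ear6 summed stand beside the single genes. Ear1 also overlaps pseudogenes and Ear2 an antisense gene, and whether counting used strand is not given in the sources used here.

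Epx, eosinophil peroxidase, lies at chromosome 11, 87864000 to 87875536 (minus strand, 13 exons). Prg2 (chromosome 2, 84980461 to 84983632) and Prg3 (chromosome 2, 84988215 to 84993886) are neighbours on the plus strand with 6 exons each, and encode the major basic protein of the granule and a related protein. Prss34, a basophil serine protease also called mMCP-11, lies at chromosome 17, 25298394 to 25300165 (plus strand, 5 exons). Mcpt8, another basophil protease, lies at chromosome 14, 56082166 to 56085273 (minus strand, 5 exons). Cpa3, carboxypeptidase A3 of mast cells and basophils, lies at chromosome 3, 20215620 to 20242181 (minus strand, 11 exons). Ms4a2, the beta chain of the high-affinity IgE receptor, lies at chromosome 19, 11615523 to 11623719 (minus strand, 6 exons).

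The 250 bases upstream of the annotated start were read from RefSeq (GRCm38.p6) for 9 of the 10 genes, all but Prg2. They were searched on both strands for the GATA-type motifs AGATAA and TGATAA and for TTGCNNAA, a form of the C/EBP motif, and no match overlapped another. Distances are counted from the RefSeq start, which is not always the GENCODE start. The Ear1 window lies within the GENCODE span of Ear1 given above, and those of Ear6 and Mcpt8 run into the spans of their genes. The windows of Ear1 (chr14:43819640-43819889, minus strand) and Ear2 (chr14:44102404-44102653, plus strand) are shown because they are nearly the same sequence, with 246 of 248 aligned bases identical (99.2%), as are many of the genes' transcript words. Those of Prss34 (chr17:25298144-25298393, plus strand), Cpa3 (chr3:20242182-20242431, minus strand) and Ms4a2 (chr19:11623720-11623969, minus strand) are shown because these are the 3 genes that fell in Ter119neg KO cells. Capitals mark the matches, with TTATCT the reverse complement of AGATAA:
Ear1: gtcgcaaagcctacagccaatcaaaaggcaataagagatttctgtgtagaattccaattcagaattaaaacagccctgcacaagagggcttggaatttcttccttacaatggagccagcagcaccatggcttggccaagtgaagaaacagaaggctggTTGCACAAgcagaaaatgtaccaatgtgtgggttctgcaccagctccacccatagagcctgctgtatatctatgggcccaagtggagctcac
Ear2: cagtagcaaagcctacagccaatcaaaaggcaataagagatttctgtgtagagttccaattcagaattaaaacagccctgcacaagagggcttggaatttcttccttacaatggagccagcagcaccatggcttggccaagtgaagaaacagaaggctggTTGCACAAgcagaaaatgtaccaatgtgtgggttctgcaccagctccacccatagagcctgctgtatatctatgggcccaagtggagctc
Prss34: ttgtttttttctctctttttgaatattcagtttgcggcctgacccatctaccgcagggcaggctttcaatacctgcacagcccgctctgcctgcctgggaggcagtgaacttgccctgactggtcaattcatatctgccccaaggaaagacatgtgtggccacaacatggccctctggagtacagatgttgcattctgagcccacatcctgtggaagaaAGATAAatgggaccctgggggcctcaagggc
Cpa3: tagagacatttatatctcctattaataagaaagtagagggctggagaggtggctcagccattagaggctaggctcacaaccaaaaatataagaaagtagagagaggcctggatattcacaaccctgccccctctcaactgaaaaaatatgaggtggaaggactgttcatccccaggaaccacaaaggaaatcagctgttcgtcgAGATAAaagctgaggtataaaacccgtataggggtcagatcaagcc
Ms4a2: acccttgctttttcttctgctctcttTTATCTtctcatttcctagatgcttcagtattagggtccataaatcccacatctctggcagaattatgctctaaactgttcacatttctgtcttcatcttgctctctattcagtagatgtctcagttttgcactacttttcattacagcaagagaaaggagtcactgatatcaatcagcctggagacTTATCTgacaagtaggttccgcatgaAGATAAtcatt

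TTGCNNAA began 92 bases upstream of the start in Ear1 and 90 bases upstream in Ear2, and 9.57% of 32841 RefSeq windows of this length hold it. AGATAA stood in Prss34 (31 bases upstream), Cpa3 (46 bases upstream) and Ms4a2 (224, 37 and 11 bases upstream), against 9.99% of all windows. TGATAA stood in Prg3 among the 9, against 7.94% of all windows. The 3 windows with AGATAA belong to the 3 genes that fell in Ter119neg KO cells. Either GATA-type motif stood in 4 of the 9 windows, against 16.6% of all windows. Of these 4 genes, Prg3 was not called in Ter119neg (log2 fold change -0.30). Mcpt8, which was lower in both Ter119neg KO libraries without being called, held no match. The motifs were searched with the expression results known, and a match is a run of letters, not a binding site. The Ear6 window was 92.6% identical to that of Ear1 over 229 aligned bases and held no match.

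In WT cells the 10 genes were read in LK and in Ter119neg libraries and were close to 0 in Ter119pos libraries, as the plot of levels shows. Per kilobase of the longest transcript, Prg2 led in every group. In LK WT it averaged 1032 CPM per kb, with its lowest library at 426. The next gene, Prss34, averaged 66.9 CPM per kb in LK WT with its highest library at 99.0, and Epx followed at 50.3 and Mcpt8 at 42.1. The order of those 3 is not set by the data, since the libraries of Prss34 (29.1 to 99.0 CPM per kb) span those of Epx and Mcpt8. In Ter119neg WT Prg2 averaged 93.0 CPM per kb and the Ear genes came next, at 17.4 for Ear1, 13.4 for Ear6 and 13.1 for Ear2, with overlapping libraries. Prss34 came last in Ter119neg WT, at 0.781 CPM per kb. The basophil proteases thus stood near the top of the order in LK WT and at its lower end in Ter119neg WT.

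**Figure D1:**
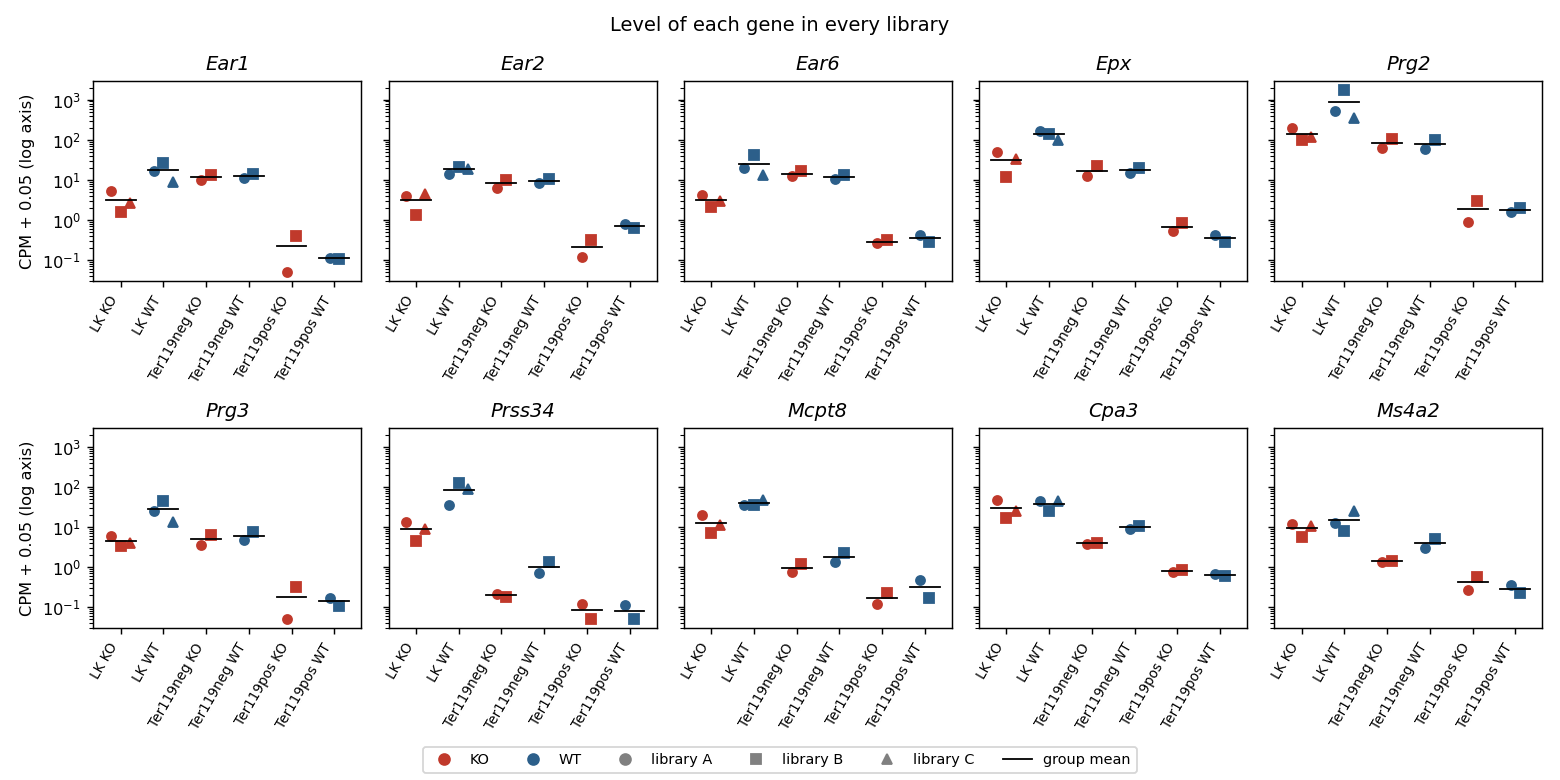
Normalised level of each of the 10 genes (CPM plus 0.05, log axis) in all 14 libraries, KO in red and WT in blue, with circles, squares and triangles for libraries A, B and C and a line at the group mean. The 6 eosinophil genes lie lower in every LK KO than in every LK WT library and overlap between Ter119neg KO and WT, while Cpa3 overlaps in LK and lies lower in both Ter119neg KO libraries.

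In LK cells all 6 eosinophil granule genes were lower in every KO than in every WT library, and 3 of them, Ear2, Ear6 and Prg3, passed the test (edgeR quasi-likelihood, adjusted p under 0.05). The basophil protease gene Prss34 fell as well, while Cpa3 and Ms4a2 overlapped between the groups. In these bulk samples fewer cells of a type and less RNA per cell cannot be told apart.

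Ear6 had 4.10, 2.01 and 2.93 CPM in LK KO libraries A, B and C, against 20.1, 41.8 and 13.4 CPM in LK WT. Every KO library was below every WT library. The log2 fold change was -3.04 (SE 0.498, edgeR adjusted p = 0.0348), an 8.22-fold lower level.

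Ear2 had 3.79, 1.27 and 4.35 CPM in LK KO, against 14.3, 21.4 and 18.5 CPM in LK WT (log2 fold change -2.50, SE 0.454, edgeR adjusted p = 0.0449). Ear1 had 5.12, 1.54 and 2.64 CPM in KO against 16.8, 26.9 and 8.92 CPM in WT (log2 fold change -2.48, SE 0.555, edgeR adjusted p = 0.0802). Neither gene overlapped between the groups, and only Ear2 passed the test. Summed to 1 row, the 3 Ear genes fell by 2.70 on the log2 scale (SE 0.457, edgeR adjusted p = 0.0383). Of the 4 genes called in LK, Ear2 alone was lost with a trend on transcript length removed (log2 fold change -2.14).

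Prg3 had 5.86, 3.28 and 3.81 CPM in LK KO, against 24.3, 43.8 and 13.3 CPM in LK WT (log2 fold change -2.64, SE 0.479, edgeR adjusted p = 0.0448). Its neighbour Prg2 had 191, 98.6 and 116 CPM in KO against 510, 1727 and 357 CPM in WT (log2 fold change -2.68, SE 0.647, edgeR adjusted p = 0.0919). Neither overlapped, and the WT values of Prg2 spread widely, with library B the highest. Epx had 48.9, 11.5 and 32.1 CPM in KO against 163, 141 and 101 CPM in WT, again without overlap (log2 fold change -2.13, SE 0.502, edgeR adjusted p = 0.0871).

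Among the basophil and mast cell genes, Prss34 had 13.4, 4.35 and 9.04 CPM in LK KO against 35.4, 121 and 88.5 CPM in LK WT. The groups did not overlap, and the log2 fold change was -3.18 (SE 0.570, edgeR adjusted p = 0.0432). Mcpt8 had 19.9, 7.03 and 10.9 CPM in KO against 35.8, 35.5 and 48.0 CPM in WT, without overlap (log2 fold change -1.66, SE 0.393, edgeR adjusted p = 0.0874). Cpa3 had 47.0, 16.2 and 25.0 CPM in KO against 43.2, 24.5 and 44.5 CPM in WT, and its highest library was a KO library (log2 fold change -0.35, SE 0.425, edgeR adjusted p = 0.717). Ms4a2 had 11.7, 5.49 and 10.2 CPM in KO against 12.3, 7.86 and 24.3 CPM in WT, also overlapping (log2 fold change -0.70, SE 0.466, edgeR adjusted p = 0.488).

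In all, 4 of the 10 genes were called lower in LK KO and 0 higher, where 0.661% of the 13771 genes tested were called lower. Every KO library lay below every WT library for 8 of the 10, against 12.9% of genes tested. The median log2 fold change was -2.49 over the 10 genes, -2.57 over the 6 eosinophil genes and -1.18 over the 4 others, against -0.09 over all genes tested.

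LK libraries of the same letter deviated together from their group means, and with the letter as a block 8 of the 10 were called lower, where the block called 12.8% of genes tested lower. The 8 were the 6 eosinophil genes, Prss34 and Mcpt8. Their adjusted p with the block ran from 0.00563 for Ear6 to 0.0224 for Prg2, and their log2 fold changes from -1.75 for Mcpt8 to -3.09 for Prss34. Cpa3 (-0.43, edgeR adjusted p = 0.166) and Ms4a2 (-0.62, 0.109) were not called with the block either.

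The size of the difference varied by letter. For the 6 eosinophil genes KO libraries held 0.204 to 0.375 of the WT level in letter A and 0.218 to 0.325 in letter C, but 0.0480 to 0.0819 in letter B. Prss34 had ratios of 0.378 (A), 0.0360 (B) and 0.102 (C), and Mcpt8 ratios of 0.554, 0.198 and 0.227. Cpa3 had ratios of 1.09, 0.662 and 0.560, and Ms4a2 ratios of 0.951, 0.698 and 0.419. The lowest ratio of all 6 eosinophil genes and of both proteases was thus in letter B, whose libraries also held the high 18S share. The part of that 18S share in the result was not tested. In letters A and C KO was also below WT for these 8 genes. Without both letter B libraries, without both letter C libraries, or without any 1 of KO libraries A, B and C or WT library A, edgeR called 0 of the 10, with every fold change of these 8 genes still negative.

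**Figure D2:**
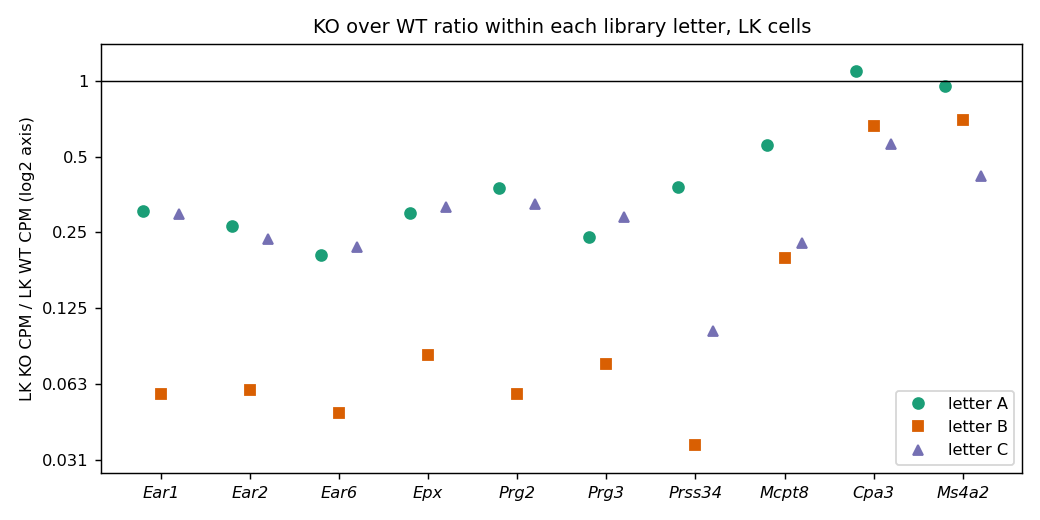
Ratio of the LK KO to the LK WT level (CPM over CPM, log2 axis) of each gene within library letters A (circles), B (squares) and C (triangles), with a line at 1. For the 6 eosinophil genes letter B lies lowest, at 0.0480 to 0.0819, while Cpa3 lies at 0.560 to 1.09 and Ms4a2 at 0.419 to 0.951.

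Summed levels of neutrophil and erythroid markers differed between LK KO and WT too, while those of monocyte and macrophage markers overlapped. The 12 neutrophil genes summed to 9374 to 17738 CPM in KO against 23215 to 49996 CPM in WT, with a median log2 fold change of -2.19. Of these, edgeR called 0, and every KO library lay below every WT library for 4. With the letter block 10 of the 12 were called lower, where 12.8% of all genes were. The 12 monocyte and macrophage genes summed to 258 to 792 CPM in KO against 689 to 2937 CPM in WT, which overlap. Their median log2 fold change was -1.56 over the 7 tested. Without the block edgeR called 3 of the 7 lower, where 0.661% of all genes were. The 10 erythroid genes summed to 1099 to 1595 CPM in KO against 713 to 995 CPM in WT, with a median log2 fold change of 0.23. Car1, one of these genes, had 779 to 972 CPM in KO against 399 to 449 CPM in WT. The only erythroid gene called was Slc4a1, which was lower (-5.32, edgeR adjusted p = 0.0100). None of the genes of these 3 lists was at 0 throughout a group, and their part in the result for the 10 genes was not tested.

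In fetal Ter119neg cells the basophil and mast cell genes Prss34, Cpa3 and Ms4a2 fell in KO, and Mcpt8 was lower in both KO libraries without passing the test. The 6 eosinophil granule genes overlapped between KO and WT, and edgeR called 0 of 6, with 0 at an unadjusted p under 0.05 and 0 by DESeq2.

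Cpa3 had 3.77 and 3.99 CPM in Ter119neg KO libraries A and B, against 8.89 and 10.7 CPM in Ter119neg WT. The groups were well apart, and the log2 fold change was -1.33 (SE 0.164, edgeR adjusted p = 0.000202). Ms4a2 had 1.32 and 1.33 CPM in KO against 2.94 and 5.01 CPM in WT (log2 fold change -1.58, SE 0.305, edgeR adjusted p = 0.00375).

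Prss34 had 0.165 and 0.133 CPM in Ter119neg KO against 0.642 and 1.26 CPM in WT, from 6 and 5 counts in KO and 33 and 53 counts in WT. The log2 fold change was -2.63 (SE 0.552, edgeR adjusted p = 0.00601), and the call was lost without KO library B, without WT library B and with DESeq2. Mcpt8 had 0.687 and 1.12 CPM in KO against 1.28 and 2.24 CPM in WT (log2 fold change -0.95, SE 0.393, edgeR adjusted p = 0.115). All 4 genes were thus lower in both KO than in both WT libraries.

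The levels of the eosinophil genes overlapped. Prg2 had 61.0 and 105 CPM in Ter119neg KO against 59.5 and 96.4 CPM in WT (log2 fold change 0.09, SE 0.269, edgeR adjusted p = 0.859). Epx had 445 and 810 counts in KO against 743 and 848 counts in WT, or 16.9 ± 6.58 against 17.3 ± 4.08 CPM (SD, n = 2 each). Its log2 fold change was -0.03 (SE 0.227, edgeR adjusted p = 0.937). In both genotypes library B was above library A, and the groups overlapped. Ear6 had 12.3 and 16.1 CPM in KO against 10.5 and 13.5 CPM in WT (log2 fold change 0.25, SE 0.166, edgeR adjusted p = 0.334). Prg3 had 3.52 and 6.22 CPM in KO against 4.65 and 7.40 CPM in WT (log2 fold change -0.30, SE 0.307, edgeR adjusted p = 0.546). Both overlapped as well. Ear1 had 9.71 and 13.4 CPM in KO against 11.2 and 13.6 CPM in WT, and Ear2 6.35 and 9.87 CPM against 8.09 and 10.7 CPM. Their reads summed with Ear6 differed by 0.00 on the log2 scale (SE 0.176, edgeR adjusted p = 0.995).

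In all, 3 of the 10 genes were called lower in Ter119neg KO and 0 higher, where 9.55% of the 15566 genes tested were called lower. Both KO libraries lay below both WT libraries for 4 of the 10, against 31.0% of genes tested. The median log2 fold change was -1.46 over the 4 basophil and mast cell genes and -0.07 over the 6 eosinophil genes, against 0.01 over all genes tested. The count of 4 is near its background, and the 3 calls were all basophil and mast cell genes.

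Summed levels of other myeloid lists were lower in Ter119neg KO cells. The monocyte and macrophage genes summed to 110 to 144 CPM in KO against 315 to 374 CPM in WT, and 11 of 11 tested were called lower. The neutrophil genes summed to 1009 to 1423 CPM in KO against 1815 to 1891 CPM in WT, with 2 of 12 called lower. Of all genes tested, 9.55% were called lower. Mpo alone had 366 and 398 CPM in KO against 702 and 719 CPM in WT, a large part of the neutrophil sum. Their part in the results for Cpa3, Ms4a2 and Prss34 was not tested.

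**Figure D3:**
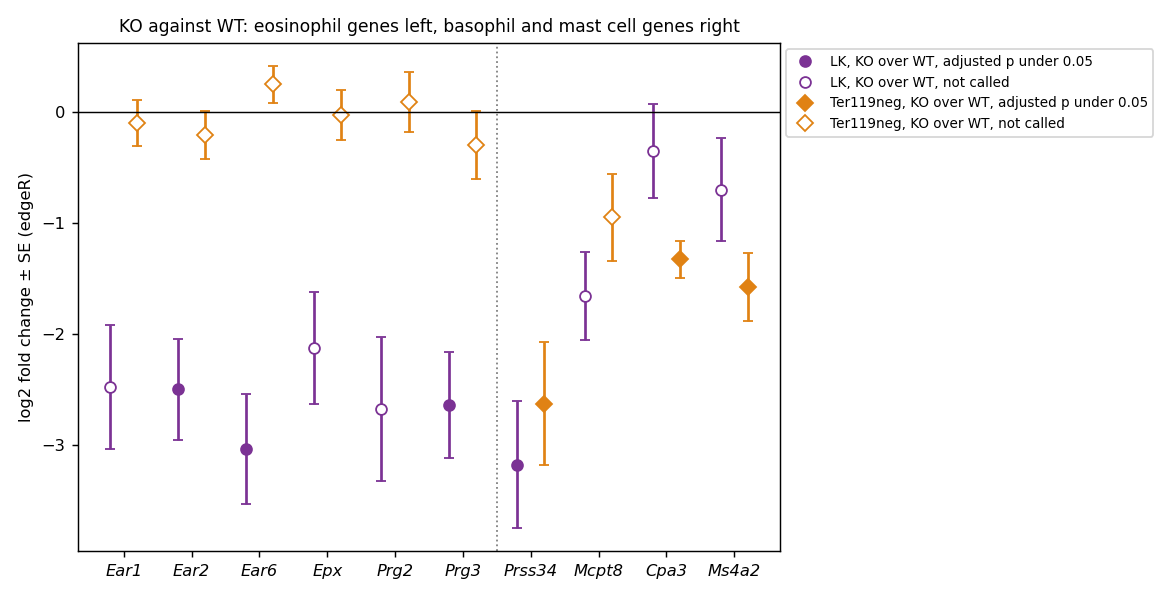
Log2 fold change of KO over WT with its SE from edgeR for each gene in LK cells (purple circles, n = 3 and 3 libraries) and in Ter119neg cells (orange diamonds, n = 2 and 2), filled where the adjusted p was under 0.05. In LK the eosinophil genes lie between -3.04 and -2.13 and Cpa3 at -0.35, while in Ter119neg the eosinophil genes lie between -0.30 and 0.25 and Cpa3 at -1.33.

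Whether the KO effect itself differed between LK and Ter119neg cells was tested in 1 model of all 14 libraries, a comparison added after the data were seen. It assumes that both kinds of cells share 1 spread, and tissue, stage, recombinase and RNA kit differ along with the cell type. The LK effect minus the Ter119neg effect was -3.23 for Ear6, -2.70 for Prg2, -2.32 for Ear1, -2.29 for Prg3, -2.25 for Ear2 and -2.07 for Epx on the log2 scale. For the others it was -0.48 (Prss34), -0.67 (Mcpt8), 1.00 (Cpa3) and 0.89 (Ms4a2).

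Of the 10 genes edgeR called 0, where it called 0.0361% of 16636 genes in either direction. There were 6 at an unadjusted p under 0.05, and DESeq2 called 2. For these last counts the share of all genes is not given, so they have no background here. The 6 at an unadjusted p under 0.05 were the 6 eosinophil genes. The smallest adjusted p was 0.0982, for Ear6. With the letter of the LK libraries as a block, 5 of 10 were called lower, where 1.63% of genes were. These were Ear6 (-3.04, edgeR adjusted p = 0.00178), Ear2 (-2.26, 0.0125), Epx (-2.21, 0.0154), Ear1 (-2.22, 0.0253) and Prg3 (-2.13, 0.0300). Prg2 (-2.41, 0.0522) and Cpa3 (0.93, 0.0695) just missed the threshold. A larger KO effect in LK than in Ter119neg cells was therefore called for 5 of the 6 eosinophil genes with the block, and for none without it.

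A ratio of 2 genes within a library does not depend on normalisation across libraries. The ratio of Cpa3 to Epx was chosen after the values were seen, and it restates the changes of these 2 genes given above. Per Epx count, LK KO libraries A, B and C held 0.962, 1.41 and 0.776 Cpa3 counts, against 0.264, 0.174 and 0.439 in LK WT. Ter119neg KO libraries A and B held 0.308 and 0.185 Cpa3 counts per Epx count, against 0.615 and 0.529 in Ter119neg WT. The ratio was thus higher in every LK KO than in every LK WT library, and lower in both Ter119neg KO than in both Ter119neg WT libraries. Ratios of the other basophil and mast cell genes to Epx overlapped between LK KO and LK WT libraries. Per Epx count, Ms4a2 had 0.238 to 0.477 counts in LK KO against 0.0559 to 0.240 in LK WT, Mcpt8 0.339 to 0.610 against 0.219 to 0.474, and Prss34 0.274 to 0.378 against 0.217 to 0.873. As a share of the summed CPM of the 10 genes, the 4 basophil and mast cell genes made up 21.9% to 26.2% in LK KO against 8.61% to 28.6% in LK WT, which overlap. In Ter119neg they made up 5.35% and 3.69% in KO against 11.3% and 10.6% in WT.

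**Figure D4:**
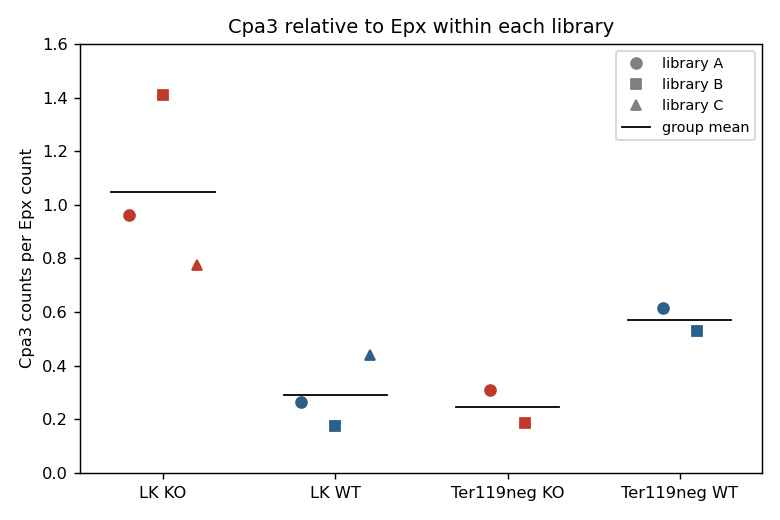
Cpa3 counts per Epx count in each LK and Ter119neg library, KO in red and WT in blue, with a line at the group mean. The 3 LK KO libraries lie at 0.776 to 1.41, above the LK WT libraries at 0.174 to 0.439, whereas the 2 Ter119neg KO libraries lie at 0.185 and 0.308, below the Ter119neg WT libraries at 0.529 and 0.615.

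In Ter119pos cells all 10 genes were near 0, at 0 to 33 counts per library. Prg2, the highest, had 12 and 33 counts in Ter119pos KO libraries A and B against 26 and 33 counts in Ter119pos WT. Cpa3 had 10 and 9 counts in KO against 10 and 9 counts in WT. Ear2 had 1 and 3 counts in KO against 12 and 10 counts in WT, and was the only gene called lower (log2 fold change -2.05, SE 0.779, edgeR adjusted p = 0.0414). The call of 1 of 10 stands against 29.3% of genes called lower in Ter119pos, rests on these few counts of a gene that shares reads with Ear1, and was lost without any 1 of the 4 libraries. Summed with Ear1 and Ear6, the log2 fold change was -0.89 (edgeR adjusted p = 0.197).

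Between the fractions, Prg2 had 1.56 and 1.94 CPM in Ter119pos WT against 59.5 and 96.4 CPM in Ter119neg WT. Cpa3 had 0.601 and 0.530 CPM in Ter119pos WT against 8.89 and 10.7 CPM in Ter119neg WT. Both were far lower in Ter119pos, with log2 fold changes of -5.47 (SE 0.398, edgeR adjusted p = 7.91e-08) and -4.10 (SE 0.243, 1.18e-08). In WT 10 of 10 genes were called lower in Ter119pos, where 40.4% of genes tested were. In KO 9 of 10 were called lower, where 32.3% were, and Prss34, with 1 and 0 counts in Ter119pos KO against 6 and 5 counts in Ter119neg KO, was not. The low count filter was run over both fractions together. Genes with almost no Ter119pos counts, such as Prss34, passed it only through Ter119neg, so a lower level in Ter119pos was largely set in advance. These calls therefore describe where the genes were read and are no separate support. The median log2 fold change of Ter119pos over Ter119neg was -5.05 in KO and -5.05 in WT, against -0.12 and -0.19 over all genes tested.

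The KO effect on Cpa3 differed between the fractions. It was 0.38 (SE 0.389) in Ter119pos and -1.33 (SE 0.164) in Ter119neg, a difference of 1.71 on the log2 scale (SE 0.428, edgeR adjusted p = 0.00701). This was 1 of 10 genes called higher, where 19.3% of genes tested were. For Ms4a2 the difference was 2.12 (SE 0.836, edgeR adjusted p = 0.0592), and with the mouse as a block it was called as well (2.89, 0.0186). The Ter119pos values behind both rest on 3 to 10 counts per library.

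Genes that act with the 10 were read from a list of 27 surface and enzyme genes of the same cells, of which 16 were tested in LK and 15 in fetal cells. In LK edgeR called 0 of 16, with 3 at an unadjusted p under 0.05, and DESeq2 called 1 higher and 1 lower. The shares of all genes at an unadjusted p and by DESeq2 are not given here. With the letter block Il1rl1, the IL-33 receptor of mast cells and basophils, was higher, and Fcer1g and Rab44 were lower, 2 of 16 where the block called 12.8% of all genes lower. The list's median log2 fold change was -0.08 in LK, against -0.09 over all genes tested. The 10 granule and receptor genes and this wider list thus had different medians in LK, -2.49 and -0.08.

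Il1rl1 had 31.2, 34.5 and 34.4 CPM in LK KO against 16.2, 11.9 and 20.6 CPM in LK WT (log2 fold change 1.04, edgeR adjusted p = 0.0943, and 0.0106 with the block). In Ter119neg it had 11.7 and 12.7 CPM in KO against 7.70 and 8.45 CPM in WT (log2 fold change 0.60, edgeR adjusted p = 0.0153). It was above every WT library in both of these populations. In Ter119pos it was lower, with 11.6 ± 0.264 CPM in KO against 18.9 ± 4.33 CPM in WT (SD, n = 2 each, log2 fold change -0.71, edgeR adjusted p = 0.00264), and its KO effect differed between the fractions by -1.31 on the log2 scale (Ter119pos minus Ter119neg, edgeR adjusted p = 0.000566). Fcer1g, the gamma chain shared by the IgE receptor and other Fc receptors, had 46.2, 71.5 and 61.4 CPM in LK KO against 93.3, 267 and 137 CPM in LK WT (log2 fold change -1.47, edgeR adjusted p = 0.129, and 0.00588 with the block). In Ter119neg Fcer1g had 5.77 and 5.19 CPM in KO against 11.1 and 13.0 CPM in WT (log2 fold change -1.14, edgeR adjusted p = 0.00147). The gamma chain was lower in every KO library of both populations. Of the 15 tested in Ter119neg, the other calls were Alox5 higher (0.64, edgeR adjusted p = 0.0156), which encodes a leukotriene enzyme, and Rab44 (-0.92, 0.00895) and the histamine enzyme gene Hdc (-0.45, 0.0354) lower.

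Of 22 cytokine receptors and lineage transcription factors, edgeR called 0 in LK, with 9 at an unadjusted p under 0.05 and 5 lower by DESeq2. The latter counts again stand without a share of all genes. With the letter block 10 of 22 were lower, where 12.8% of all genes were, and 1, Gata1, was higher. In Ter119neg 7 of 22 were lower, where 9.55% of all genes were, and 1, Id1, was higher. The median log2 fold change was -0.76 in LK and -0.55 in Ter119neg, against -0.09 and 0.01 over all genes tested.

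Csf2ra, the GM-CSF receptor alpha chain, had 7.99, 19.1 and 25.2 CPM in LK KO against 54.7, 138 and 92.1 CPM in LK WT (log2 fold change -2.44, edgeR adjusted p = 0.0633, and 0.00126 with the block). In Ter119neg Csf2ra had 0.907 and 1.06 CPM in KO against 3.95 and 5.49 CPM in WT (log2 fold change -2.25, edgeR adjusted p = 0.000545). It was lower in every KO library of both populations. Csf2rb, the beta chain common to the IL-3, IL-5 and GM-CSF receptors, had 78.5, 47.8 and 88.0 CPM in LK KO against 131, 110 and 165 CPM in LK WT (log2 fold change -0.92, edgeR adjusted p = 0.175, and 0.00679 with the block). In Ter119neg Csf2rb had 11.1 and 14.2 CPM in KO against 29.0 and 38.7 CPM in WT (log2 fold change -1.42, edgeR adjusted p = 0.000114). KO and WT did not overlap in either population.

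Gata2, a transcription factor of mast cells and basophils, had 95.6, 84.6 and 64.4 CPM in LK KO against 64.1, 71.7 and 46.9 CPM in LK WT (log2 fold change 0.42, edgeR adjusted p = 0.446). In Ter119neg Gata2 had 12.9 and 10.3 CPM in KO against 18.2 and 16.4 CPM in WT (log2 fold change -0.58, edgeR adjusted p = 0.0187). The Gata2 groups overlapped in LK and were apart in Ter119neg. Gata1 had a log2 fold change of 0.50 in LK (edgeR adjusted p = 0.480 without the block). In Ter119neg it was 0.13 (edgeR adjusted p = 0.450), with both KO libraries above both WT libraries. Cebpe, a C/EBP factor of late granulocyte differentiation, had 19.7, 34.7 and 44.6 CPM in LK KO against 36.3, 155 and 125 CPM in LK WT (log2 fold change -1.68, edgeR adjusted p = 0.179, and 0.00740 with the block). In Ter119neg Cebpe had 4.45 and 7.02 CPM in KO against 7.67 and 8.33 CPM in WT (log2 fold change -0.48, edgeR adjusted p = 0.211). Cebpa and Cebpb had log2 fold changes of -1.34 and -2.15 in LK (edgeR adjusted p = 0.421 and 0.254). With the block only Cebpb of them was called (-1.70, edgeR adjusted p = 0.0134). In Ter119neg they had -0.55 and -0.71 (edgeR adjusted p = 0.0727 and 0.0686). The LK effect minus the Ter119neg effect, in the model of all 14 libraries, was 1.03 for Gata2 (SE 0.350, edgeR adjusted p = 0.528) and -1.16 for Cebpe (SE 0.718, edgeR adjusted p = 0.891), and neither was called.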

How the data were processed

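Expression was read from the deposited RSEM expected counts per gene, which the authors made from total RNA libraries of a stranded kit (Trizol RNA and Ribo-Zero for fetal liver, column RNA for LK, per the labels' protocols). Per the submitters' processing notes, STAR 2.5.3 and RSEM were used with GRCm38 (mm10). The sources used here give no RSEM version and no annotation release.

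Expected counts were rounded and tested in R 4.3.3 with edgeR 4.0.16 (TMM, filterByExpr, quasi-likelihood F tests, Benjamini-Hochberg over all genes tested, called under 0.05). The 6 LK and the 8 fetal libraries formed separate models with a mean per group. The SE is the log2 fold change divided by the root of F. DESeq2 1.42.0, RLE size factors, an unfiltered table, each library left out, models of 1 fraction, globin genes removed, removal of a length trend (lowess, span 0.3), letters B or C left out, Ear reads summed, and blocks were tried as alternatives. The script was tested on simulated data.

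LK libraries of the same letter had correlations of deviations from group means of 0.604, 0.719 and 0.73, so letters were taken as pairs. The labels do not name what a letter shares. Fetal letters had 0.0138 and 0.00297 and were not. The mouse block rests on the labels.

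The 10 genes, the marker lists and the comparisons were chosen with earlier results of these data known. All 10 are named, with any gene of the surface and enzyme list and of the receptor and transcription factor list. Counts limit precision for genes under about 10 counts, and the limit for a count of 0 covers counting error only.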

Additional observations from a re-analysis of the deposited data

Results flagged for a closer look

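The KO effect on Cpa3 differed between fetal fractions, by 1.71 on the log2 scale (Ter119pos minus Ter119neg, edgeR adjusted p = 0.00701). This was 1 of 10 genes called higher, against 19.3% of all genes tested, and its Ter119pos side rests on 9 to 10 counts per library. With the letter block, the LK effect differed from the Ter119neg effect for Ear1 (-2.22), Ear2 (-2.26), Ear6 (-3.04), Epx (-2.21) and Prg3 (-2.13).

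The ratios of Cpa3 to Epx and to Ear6 counts moved in opposite directions in the 2 populations. Cpa3 counts per Epx count averaged 1.05 in LK KO against 0.292 in LK WT libraries, and 0.246 in Ter119neg KO against 0.572 in Ter119neg WT libraries. Cpa3 counts per Ear6 count averaged 9.36 in LK KO against 2.02 in LK WT libraries, and 0.277 in Ter119neg KO against 0.822 in Ter119neg WT libraries. Every LK KO library was higher and every Ter119neg KO library lower than the WT libraries of its population. The ratios were formed after the values were seen, and the difference in ratio was not tested.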

How the results depend on the processing

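In LK cells, 4 of the 10 genes were called, where 0.661% of genes tested were called lower. The count was 8 with the letter as a replicate block, where 12.8% were. It was also 8 with DESeq2 and 8 with the block and the length trend removed, and 0 without both letter B or both letter C libraries. The shares of all genes for these last settings are not given, so their counts have no background here. With 1 library left out the count of the 10 ran from 0 to 3, being 0 without KO A, B or C or WT A. Over all genes the number called then ran from 33 to 268. In Ter119neg the count of 3 stayed between 2 and 4 under every alternative run. The Ter119pos call was 0 with the replicate block and 0 with any 1 library left out. The fetal letters do not pair, and with them as a replicate block Mcpt8 was also called in Ter119neg (adjusted p = 0.0289).

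For the KO effect in Ter119pos minus Ter119neg, 1 gene was called, against 3 with no low count filter, 2 with globin genes removed, 2 with mouse as a replicate block, and 1 to 2 with 1 library left out. For LK minus Ter119neg, 0 were called, against 4 with no low count filter, 2 with DESeq2, 5 with the replicate block, 1 without both letter B LK libraries, and 0 to 1 with 1 library left out. Of all genes tested, 19.3% were called higher for Ter119pos minus Ter119neg. For LK minus Ter119neg 0.0361% were called in either direction, and 1.63% were called lower with the replicate block. For the other settings above the share of all genes is not given, so those counts have no background here. The LK minus Ter119neg difference for Prss34 turned to 0.20 without both letter B LK libraries.

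In Ter119neg the uncalled eosinophil genes changed sign when 1 library was left out. Their log2 fold changes ran from -0.40 to 0.08 (Ear1), -0.61 to 0.04 (Ear2), -0.01 to 0.40 (Ear6), -0.55 to 0.29 (Epx), -0.40 to 0.43 (Prg2) and -0.81 to 0.02 (Prg3). Where a group kept 1 library, it was assumed to vary like the others. The cause of these shifts was not tested. Depth limits the Ter119pos values, all of which rest on 0 to 33 counts.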

Other observations

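The common beta chain genes moved in opposite directions in the fetal fractions. Csf2rb had 85.0 and 70.6 CPM in Ter119pos KO against 6.55 and 5.77 CPM in Ter119pos WT (log2 fold change 3.66, edgeR adjusted p = 5.89e-08). Csf2rb2, which encodes the IL-3-specific beta chain of the mouse, had 50.8 and 45.3 CPM in Ter119pos KO against 3.01 and 2.53 CPM in Ter119pos WT (log2 fold change 4.12, edgeR adjusted p = 2.43e-08). Both were higher in Ter119pos KO and lower in Ter119neg KO cells, with a difference of the KO effect of 5.08 for Csf2rb and 5.27 for Csf2rb2 (edgeR adjusted p = 5.98e-07 for each). The alpha chain gene Csf2ra was at most 0.782 CPM in any Ter119pos library. Spi1, a myeloid transcription factor, had 9.94 and 10.4 CPM in Ter119pos KO against 2.22 and 1.65 CPM in Ter119pos WT (log2 fold change 2.39, edgeR adjusted p = 9.07e-07), while the 10 granule and receptor genes stayed at or below 33 counts. Of the 15 surface and enzyme genes tested in Ter119pos, edgeR called 3 higher and 4 lower in KO, where 29.3% of all genes were called lower. The share called higher is not given here. Cd200r3 (log2 fold change 3.48, edgeR adjusted p = 0.000307), Il4 (2.32, 0.0206) and Srgn (2.36, 3.63e-06) were higher. Siglecf, Il1rl1, Slc18a2 and Rab44 were lower.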
